A study of Mus musculus with 8 samples.

Results

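The genes described here encode the proteins of the mitochondrial ribosome, and they were taken by symbol: every entry of the deposited table of normalized counts whose mouse gene symbol is Mrpl or Mrps followed by a digit. There were 76 such genes among 23302 entries, on 17 chromosomes, and all 76 were among the 13011 genes with a mean normalized count of at least 10 over the 8 libraries, which were tested. Known structures place 49 of them in the large and 26 in the small subunit. The exception is Mrps36, which carries the symbol but is known as a component of the 2-oxoglutarate dehydrogenase complex. Mrps18a and Mrps30 have small-subunit names but sit in the large subunit and were counted there. Of the 75 ribosomal genes, 46 have a bacterial homolog and 29 are specific to mitochondria. The symbol rule does not reach 7 further subunits (Dap3, Chchd1, Ptcd3, Aurkaip1, Gadd45gip1, Ict1 and Mrp63), whose values are given separately.

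The samples were naive B cells from spleens of C57BL/6 mice, the RNA of which was extracted with a Qiagen RNeasy Plus Mini kit and made into TruSeq stranded mRNA libraries read from both ends. The 4 groups held 2 libraries each: BEBi3-/- mice with a pancreatic tumor, WT mice with a tumor, BEBi3-/- mice without a tumor and WT mice without a tumor. Ebi3 encodes a subunit shared by the cytokines IL-35 and IL-27. The genotype label reads B-EBi3-. What drives the deletion, the age of the animals and the tumor model are not stated in the labels. The groups called nontumor carry the word WT as their tumor status, a reading on which every tumor comparison below depends. Nothing in the labels ties the replicate libraries to different animals, so each p-value measures library-to-library spread only, which may be technical.

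Mitochondria translate a small set of inner-membrane proteins of the respiratory chain on ribosomes of their own. The ribosomal RNAs of these particles come from mitochondrial DNA, whereas every protein subunit is encoded in the nucleus, made by cytosolic ribosomes and imported. Naive B cells are small resting lymphocytes, and mitochondrial translation is known to increase when lymphocytes are activated and grow.

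Some libraries stood apart in ways that bear on every comparison. Depth was between 21291892 and 28297319 reads. Ebi3 itself stood at 8.70 and 10.999 normalized counts in BEBi3-/- tumor libraries, 201 and 164 in WT tumor libraries, 12.8 and 11.5 in BEBi3-/- nontumor libraries and 8.94 and 10.97 in WT nontumor libraries. It therefore separated the genotypes in tumor mice, and its level in nontumor mice was as low in WT as in BEBi3-/- libraries. The WT tumor libraries were also the ones with high Xist, at 19758 and 26191 against at most 18.3 elsewhere, and with at most 14.2 counts of the Y-linked Ddx3y, against at least 2038.5 in each of the other libraries. Their titles begin with IV, and all other titles begin with OT. High Xist with little Ddx3y is the female pattern and the reverse the male pattern, so by these genes sex differed along with the groups. Tumor status in WT, genotype in tumor mice and the interaction therefore cannot be told apart from sex or whatever else those differences mark. The B cell genes Ms4a1 and Cd79a had at least 41392 and 45467 counts in each library. The BEBi3-/- tumor libraries resembled each other more than those of any other group, with a chi-square per gene of 2.01 over all genes and 1.19 over the 76 genes, where sampling noise alone gives about 1. In the other groups the chi-square per gene lay between 13.1 and 20.3 over all genes.

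Mitochondrial ribosomal protein transcripts were lowest in WT tumor libraries, intermediate in BEBi3-/- tumor libraries and highest in both nontumor groups. Together the 76 genes took 0.281% and 0.282% of the reads in BEBi3-/- tumor libraries, 0.212% and 0.200% in WT tumor libraries, 0.2997% and 0.307% in BEBi3-/- nontumor libraries, and 0.297% and 0.331% in WT nontumor libraries. The group means were 0.282% ± 0.000437, 0.206% ± 0.00881, 0.303% ± 0.00504 and 0.314% ± 0.0242 in the same order (SD, n = 2 each). The tumor groups lay below the nontumor groups without overlap, and the nontumor groups overlapped each other. In 68 of the 76 genes the group means ascended in 1 order, with WT tumor lowest, then BEBi3-/- tumor, then BEBi3-/- nontumor, and WT nontumor highest. WT tumor was the lowest group for 75 genes, and the exception was Mrps2. In bulk RNA, fewer cells of a type that expresses these genes and less of their RNA per cell cannot be told apart.

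**Figure D1:**
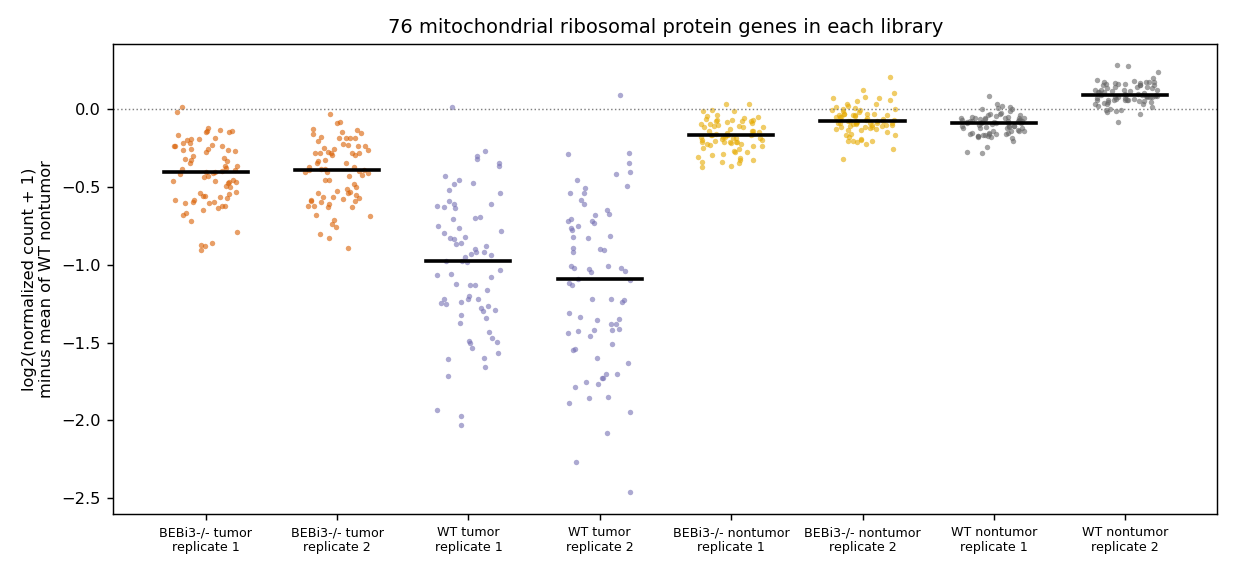
Each point is 1 of the 76 genes in 1 library, as log2(normalized count + 1) minus that gene's mean in the WT nontumor libraries, and black bars are the medians over genes. The medians were -0.40 and -0.39 in BEBi3-/- tumor libraries, -0.98 and -1.09 in WT tumor libraries, -0.17 and -0.08 in BEBi3-/- nontumor libraries, and -0.09 and 0.09 in WT nontumor libraries.

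All 76 genes were well above the detection limit. Their mean normalized counts ranged from 272 for Mrps6 to 2507 for Mrpl24, with a median of 863, and the lowest value in any library was 112.5. Levels were compared between genes per kilobase of the median annotated transcript. On that scale Mrpl30 was highest at 3211 normalized counts per kilobase, followed by Mrpl33 at 2545, Mrps21 at 2534, Mrpl20 at 2510 and Mrpl52 at 2339. These 5 genes have short transcripts, of 440.5 to 662 bases. The lowest levels per kilobase were those of Mrps25 at 83.7, Mrpl47 at 107, Mrps5 at 155, Mrpl19 at 172 and Mrps26 at 179.6, all with transcripts of 3364 to 6073 bases. The median over the 76 genes was 715 normalized counts per kilobase.

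Tumor-bearing mice were compared with nontumor mice within each genotype. In BEBi3-/- mice, 35 of the 76 genes were lower in tumor libraries, 0 were higher and 41 did not pass the test (limma, Benjamini-Hochberg adjusted p below 0.05). Over all tested genes 18.5% were lower and 14.1% higher in this comparison. In WT mice, 75 of the 76 genes were lower in tumor libraries and 0 were higher, where 40.1% of all tested genes were lower and 39.6% higher. The median log2 difference over the 76 genes was -0.30 in BEBi3-/- mice and -1.05 in WT mice, beside all-gene medians of -0.0077 and 0.0099. With edgeR on the recovered reads 36 and with DESeq2 25 of the genes were lower in BEBi3-/- mice, and 75 and 74 in WT mice. No gene was higher in either genotype, with limma at an unadjusted p below 0.05, edgeR or DESeq2.

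The count in BEBi3-/- mice depended on single libraries. With BEBi3-/- nontumor replicate 2 left out the count of lower genes fell to 4, and without BEBi3-/- tumor replicate 1 or replicate 2 it fell to 1 and 2, while the median difference lay between -0.33 and -0.24 whichever library was omitted. In the same 3 fits the share of all tested genes called lower was 6.96%, 5.32% and 5.14%, so that these counts of the 76 genes were no longer above the background. Counting the closely similar BEBi3-/- tumor libraries as 1 sample left 1 lower gene, with a median of -0.30, where 5.04% of all tested genes were lower. The gene left by that averaging was Mrps36, which is no ribosomal subunit, and the same gene was left without BEBi3-/- tumor replicate 1. The values of the libraries still separated for most genes: 65 of the 76 were lower in both BEBi3-/- tumor libraries than in either nontumor library, against 39.0% of all tested genes. In WT mice the same held for 75 genes, against 45.6% of all tested genes.

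Macrophage and erythroid markers and most cell cycle genes were lower in tumor libraries of both genotypes, as many of the ribosomal genes were. The 12 macrophage markers summed to 0.297% to 0.299% of reads in BEBi3-/- tumor libraries, 0.0578% to 0.0656% in WT tumor libraries, 0.448% to 0.560% in BEBi3-/- nontumor libraries and 0.498% to 0.542% in WT nontumor libraries, and 11 of 12 were lower in BEBi3-/- and 12 of 12 in WT tumor libraries. The 12 erythroid markers summed to 0.331% to 0.340%, 0.0996% to 0.134%, 1.25% to 1.79% and 0.744% to 0.796% in the same order of groups, with 12 of 12 lower in both genotypes. Of 20 cell cycle genes, 20 were lower in BEBi3-/- tumor libraries and 18 were lower and 1 higher in WT tumor libraries. The higher one was Mki67, which marks dividing cells and averaged 1402 ± 170.5 normalized counts in WT tumor and 479 ± 26.8 in WT nontumor libraries (SD, n = 2 each), a log2 difference of 1.54. With the length and GC trend removed 19 cell cycle genes were lower there and 0 higher. The sums of the 20 genes in the same order of groups were 0.0845% to 0.0852%, 0.0799% to 0.0821%, 0.170% to 0.171% and 0.1497% to 0.176%.

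The 10 granulocyte markers summed to at most 0.0203% of reads in any library, with 7 of 10 lower in BEBi3-/- and 10 of 10 in WT tumor libraries. Of 9 T cell markers 1 was lower and 1 higher in BEBi3-/- and 6 were lower in WT tumor libraries, and of 7 platelet markers 0 and 5 were lower. The 7 plasma cell markers ran the other way in BEBi3-/- mice, with 6 higher and 1 lower in tumor libraries, against 1 higher and 4 lower in WT mice, and summed to 0.231% of reads in BEBi3-/- tumor libraries, 0.0460% to 0.0532% in WT tumor libraries, 0.112% to 0.123% in BEBi3-/- nontumor libraries and 0.142% to 0.1545% in WT nontumor libraries. The 10 B cell markers summed to 1.12% to 1.13% in BEBi3-/- tumor libraries, 1.31% to 1.32% in WT tumor libraries, 0.929% to 0.999% in BEBi3-/- nontumor libraries and 0.8498% to 0.884% in WT nontumor libraries. Beside these marker counts, 18.5% of all tested genes were lower and 14.1% higher in BEBi3-/- tumor libraries. In WT tumor libraries 40.1% were lower and 39.6% higher. No marker in any of these lists was at 0 in both libraries of a group. The part of other cell types and of cell division in the ribosomal gene differences was not tested.

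The gene with the lowest log2 difference in WT mice was Mrpl14 (uL14), a large-subunit protein at the face toward the small subunit. Mrpl14 had 487 and 523 normalized counts in BEBi3-/- tumor libraries, 223 and 165 in WT tumor libraries, 789.6 and 797 in BEBi3-/- nontumor libraries, and 774 and 1081 in WT nontumor libraries. Both tumor groups lay below both nontumor groups, and the WT tumor libraries were below the BEBi3-/- tumor libraries. Its tumor effect was -0.65 ± 0.18 on the log2 scale in BEBi3-/- mice (limma standard error, adjusted p = 0.0269) and -2.25 ± 0.18 in WT mice (adjusted p = 6.4e-06). The BEBi3-/- call was lost without any 1 of the 4 BEBi3-/- libraries, with the BEBi3-/- tumor libraries averaged and with no filter on low genes (adjusted p of 0.0529 to 0.144). Mrpl14 is annotated on chromosome 17 (GRCm38, 45686322 to 45698495, plus strand).

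Mrpl33 (bL33), a large-subunit protein with one of the shortest transcripts of the set, 478 bases, had 993 and 1031 normalized counts in BEBi3-/- tumor libraries, 465 and 431 in WT tumor libraries, 1455 and 1685 in BEBi3-/- nontumor libraries, and 1686 and 1984 in WT nontumor libraries. Tumor and nontumor libraries did not overlap in either genotype. The tumor effect was -0.63 ± 0.11 in BEBi3-/- mice (limma adjusted p = 0.00497) and -2.03 ± 0.11 in WT mice (adjusted p = 9.9e-07), so WT tumor libraries held 0.245 times the WT nontumor level. The BEBi3-/- call was lost without BEBi3-/- tumor replicate 1 (-0.60, adjusted p = 0.0559) and with the BEBi3-/- tumor libraries averaged (-0.63, adjusted p = 0.0512).

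Mrpl12 (bL12), the stalk protein that recruits translation factors, had 1639.7 and 1604 normalized counts in BEBi3-/- tumor libraries, 707 and 649.6 in WT tumor libraries, 1913 and 2044 in BEBi3-/- nontumor libraries, and 1929.5 and 2394 in WT nontumor libraries. Its BEBi3-/- tumor libraries lay below the nontumor libraries without overlap, but the difference of -0.29 ± 0.11 did not pass the test (limma adjusted p = 0.0682). In WT mice the difference was -1.66 ± 0.11 (adjusted p = 2.4e-06). Mrpl12 lies on chromosome 11 (GRCm38, 120484613 to 120489065, plus strand).

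Mrps16 (bS16), a small-subunit protein with a long annotated transcript of 2572 bases, had 1679.7 and 1723 normalized counts in BEBi3-/- tumor libraries, 919 and 749.5 in WT tumor libraries, 2247 and 2227 in BEBi3-/- nontumor libraries, and 2441.5 and 2663 in WT nontumor libraries. The 4 groups did not overlap. The tumor effect was -0.40 ± 0.10 in BEBi3-/- mice (limma adjusted p = 0.0217) and -1.62 ± 0.10 in WT mice (adjusted p = 2.1e-06). The BEBi3-/- call did not hold with either BEBi3-/- tumor library left out.

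The other genes with the lowest called log2 differences in WT mice were Mrpl52 at -2.10, Mrps28 at -1.83, Mrpl28 at -1.70, Mrpl34 at -1.69 and Mrpl20 at -1.64. Mrpl20, Mrpl28 and Mrpl34 have bacterial homologs in the large subunit, Mrpl52 is a mitochondria-specific large-subunit protein, and Mrps28 belongs to the small subunit. Their differences in BEBi3-/- mice were -0.67 (Mrpl52), -0.47 (Mrps28 and Mrpl28), -0.63 (Mrpl34) and -0.46 (Mrpl20), and all 5 were called lower. None of these 5 BEBi3-/- calls held with either BEBi3-/- tumor library left out. Those of Mrpl52 and Mrpl34 were also lost without BEBi3-/- nontumor replicate 2 (-0.66 and -0.53).

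The lowest called log2 difference in BEBi3-/- mice was that of Mrps11 (uS11), a protein of the small-subunit platform. Mrps11 had 415 and 405 normalized counts in BEBi3-/- tumor libraries, 229 and 214 in WT tumor libraries, 632 and 702 in BEBi3-/- nontumor libraries, and 549 and 807 in WT nontumor libraries. The nontumor groups overlapped each other, and both exceeded the tumor groups. The tumor effect was -0.70 ± 0.17 in BEBi3-/- mice (limma adjusted p = 0.0169) and -1.58 ± 0.17 in WT mice (adjusted p = 2.8e-05). The BEBi3-/- call did not hold without BEBi3-/- nontumor replicate 2 or either BEBi3-/- tumor library, or with these averaged (adjusted p of 0.0963 to 0.104). Mrps36, which is no ribosomal subunit, followed at -0.69 in BEBi3-/- mice and -1.31 in WT mice. Mrps6 (bS6) stood at -0.66 and -1.51, and the mitochondria-specific Mrpl51 at -0.54 and -0.95 in the same order. The BEBi3-/- calls of Mrps6 and Mrpl51 did not hold without BEBi3-/- nontumor replicate 2 (-0.51 and -0.45) or either BEBi3-/- tumor library. That of Mrps6 was also lost with the length and GC trend removed (limma adjusted p = 0.0607) and with no filter on low genes (0.0585).

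Mrps2 (uS2), on the solvent side of the small subunit, was the only gene of the 76 not lower in WT tumor libraries. It had 636 and 618 normalized counts in BEBi3-/- tumor libraries, 711 and 748 in WT tumor libraries, 612 and 703 in BEBi3-/- nontumor libraries, and 704 and 702 in WT nontumor libraries. The BEBi3-/- groups overlapped, and the WT tumor libraries lay slightly above the WT nontumor libraries. The differences were -0.07 ± 0.09 in BEBi3-/- mice (limma adjusted p = 0.605) and 0.05 ± 0.09 in WT mice (adjusted p = 0.622). The genes next to it in WT mice were Mrpl39 at -0.28 and Mrpl19 at -0.29, both called.

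**Figure D2:**
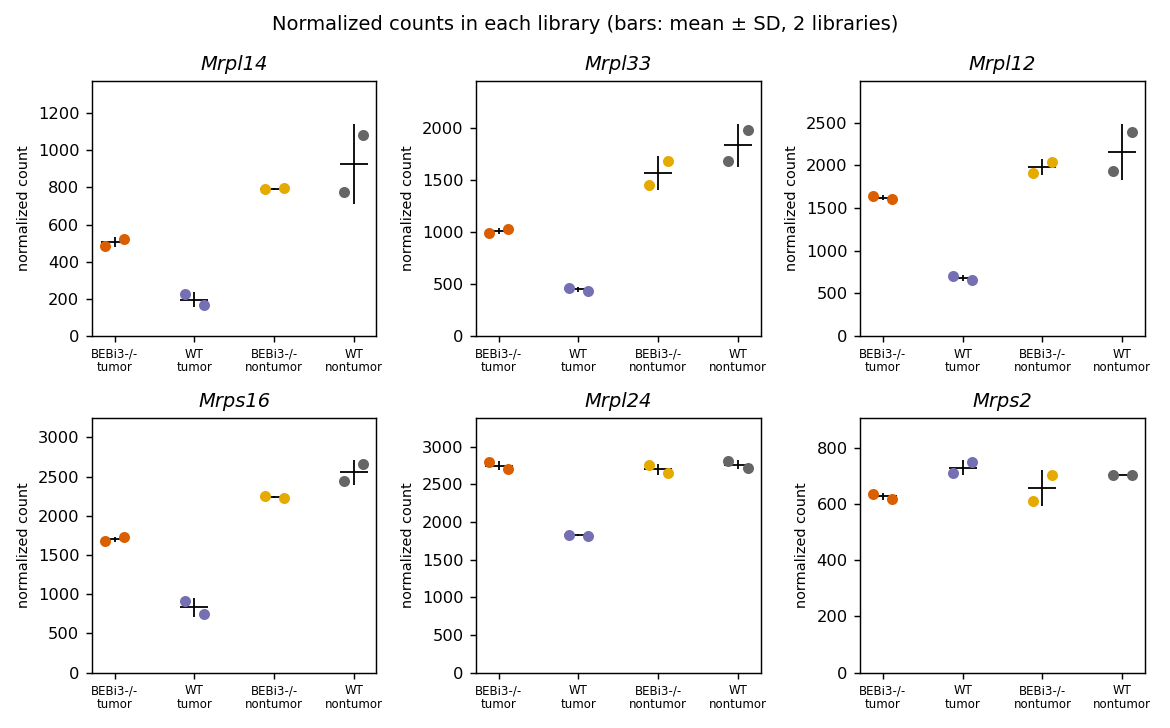
Normalized counts of 6 genes in each library, with the mean and SD of each group of 2 libraries. Mrpl14, Mrpl33, Mrpl12 and Mrps16 were lowest in WT tumor libraries and intermediate in BEBi3-/- tumor libraries, Mrpl24 was low in WT tumor libraries alone of the 4 groups, and Mrps2 was not low in WT tumor libraries.

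Of the genes, 35 were called lower in both genotypes, 40 in WT mice alone and Mrps2 in neither. With 75 of 76 called in WT mice, this overlap was nearly fixed by the counts. Across the 76 genes the BEBi3-/- and WT tumor effects had a Spearman rho of 0.76 and a Pearson r of 0.75 (n = 76 genes, which are not independent; these comparisons share no library, but share the fit and transcript lengths). The WT effect was the lower one for 75 of the 76 genes.

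**Figure D3:**
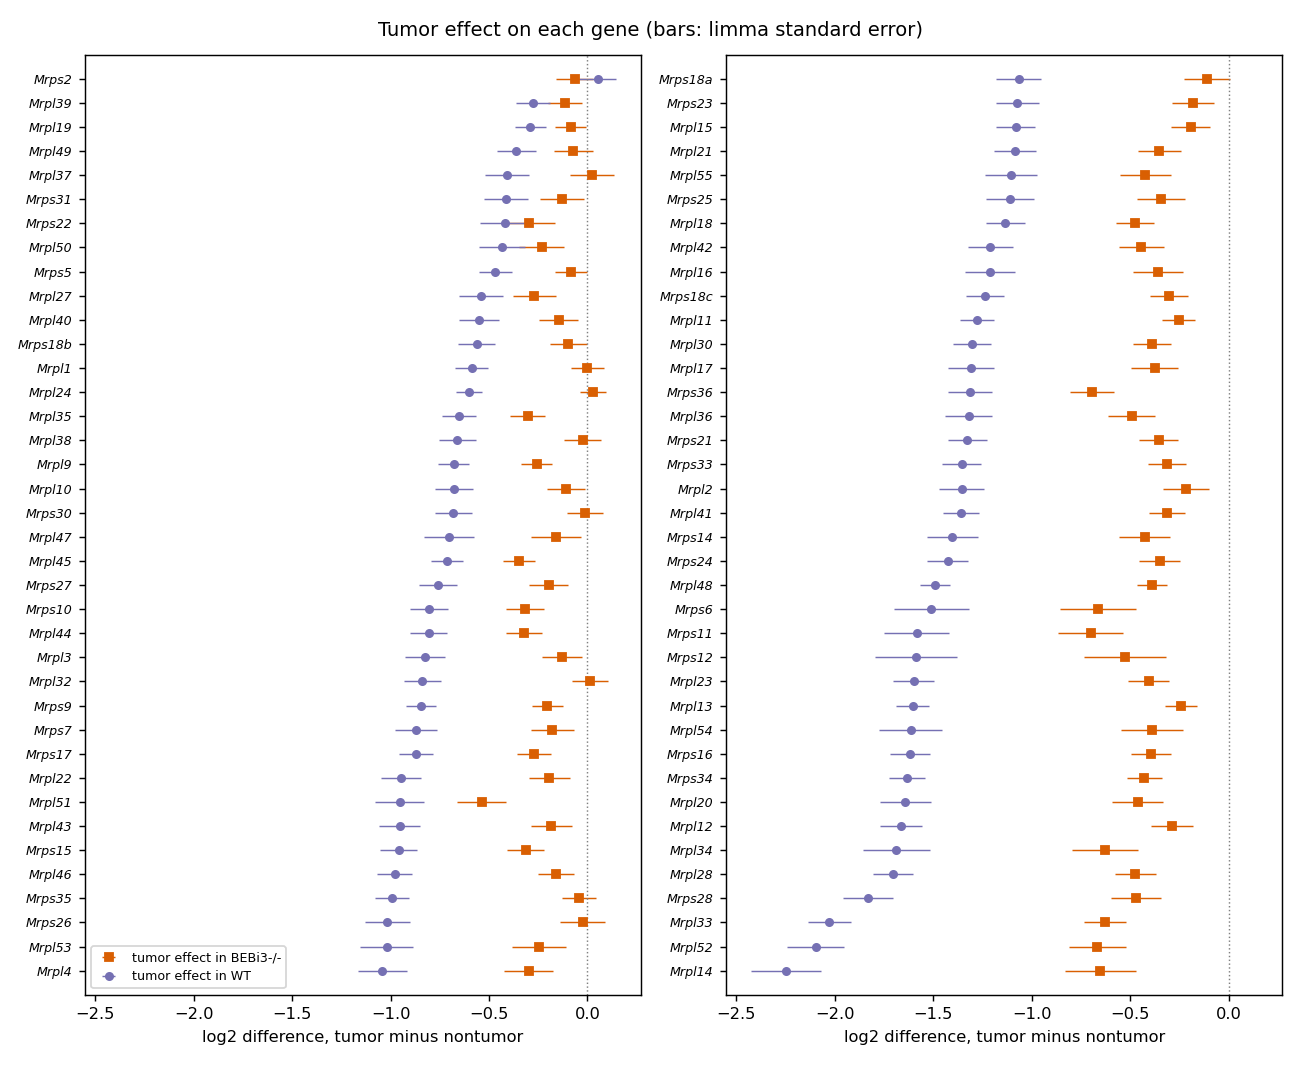
Log2 difference between tumor and nontumor libraries for each gene in BEBi3-/- (squares) and WT mice (circles), with limma standard errors, ordered by the WT difference. WT differences extended from 0.05 (Mrps2) down to -2.25 (Mrpl14), and BEBi3-/- differences from 0.03 (Mrpl24) down to -0.70 (Mrps11).

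The subunits had close medians. Among large-subunit genes 21 of 49 were lower in BEBi3-/- tumor libraries, with a median of -0.27, and 49 of 49 in WT tumor libraries, with a median of -1.04. Among small-subunit genes 13 of 26 were lower in BEBi3-/- tumor libraries, with a median of -0.31, and 25 of 26 in WT tumor libraries, with a median of -1.04. Genes with a bacterial homolog had 25 of 46 lower in BEBi3-/- and 45 of 46 in WT tumor libraries, with medians of -0.31 and -1.17. Mitochondria-specific genes had 9 of 29 and 29 of 29 lower, with medians of -0.20 and -0.95. Their median transcript was longer, at 1411 bases against 1113 for those with a bacterial homolog. These splits were described and not tested. Beside these counts and those of the regions and S18 homologs below, 18.5% of all tested genes were lower in BEBi3-/- and 40.1% in WT tumor libraries. The BEBi3-/- calls named in those regions and for Mrps18c did not hold with either BEBi3-/- tumor library left out.

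Around the peptidyl transferase centre, where peptide bonds form, Mrpl2, Mrpl3, Mrpl4, Mrpl16 and Mrpl27 were all lower in WT tumor libraries (5 of 5, median -1.04), from -0.54 for Mrpl27 to -1.36 for Mrpl2. None of these 5 passed the test in BEBi3-/- mice, where their values lay between -0.36 and -0.13. The stalk and its base, which bind elongation factors, had 0 of 5 lower in BEBi3-/- mice and 5 of 5 in WT mice. There the values were -0.68 for Mrpl10, -1.28 for Mrpl11, -1.02 for Mrpl53 and -1.62 for Mrpl54 in WT mice, beside Mrpl12 above.

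The exit tunnel and its membrane contact comprised Mrpl17, Mrpl22, Mrpl23, Mrpl24, Mrpl45 and Mrpl47. Lower in BEBi3-/- mice were 3 of 6, Mrpl17 at -0.37, Mrpl23 at -0.41 and Mrpl45, which anchors the ribosome to the inner membrane, at -0.35. In WT mice 6 of 6 were lower, from -0.60 for Mrpl24 to -1.60 for Mrpl23. Mrpl24 had 2791 and 2706 normalized counts in BEBi3-/- tumor libraries, 1830.3 and 1813 in WT tumor libraries, 2751 and 2644 in BEBi3-/- nontumor libraries, and 2803 and 2722 in WT nontumor libraries. Only its WT tumor libraries stood below the rest, and its BEBi3-/- difference was 0.03 ± 0.07 (limma adjusted p = 0.765).

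The central protuberance, which touches the head of the small subunit, had 3 of 6 genes lower in BEBi3-/- tumor libraries (Mrpl18 at -0.47, Mrpl48 at -0.39 and Mrpl55 at -0.42) and 6 of 6 lower in WT tumor libraries, with Mrpl48 at -1.49. In the small subunit, the decoding and messenger RNA channel genes Mrps5, Mrps12 and Mrps24 had 1 of 3 lower in BEBi3-/- mice, Mrps24 at -0.35, and 3 of 3 in WT mice, at -0.47 for Mrps5, -1.59 for Mrps12 and -1.43 for Mrps24. Of the head proteins Mrps7, Mrps9, Mrps10, Mrps14, Mrps31, Mrps33 and Mrps35, 3 of 7 were lower in BEBi3-/- mice (Mrps10, Mrps14 and Mrps33) and 7 of 7 in WT mice, from -0.41 for Mrps31 to -1.40 for Mrps14.

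Correcting for transcript length and GC content, as described below, changed several of these regions in WT mice. The central protuberance then had 2 of 6 genes lower (Mrpl18 at -0.46 and Mrpl48 at -1.41) and Mrpl40 higher, with a median of -0.07. Around the peptidyl transferase centre 3 of 5 stayed lower and Mrpl27 was higher. The stalk kept 3 of 5, the exit tunnel 4 of 6, the decoding genes 3 of 3 and the small-subunit head 5 of 7 lower. With this correction 38.048% of all tested genes were lower and 36.781% higher in WT tumor libraries. The region counts are too small to be read against those shares as results about the regions.

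Mammals have 3 homologs of bacterial S18, of which Mrps18b and Mrps18c sit in the small subunit and Mrps18a in the large one. Their tumor effects in WT mice were -1.07 for Mrps18a, -0.56 for Mrps18b and -1.24 for Mrps18c, all called. Of the 3, Mrps18c alone was called in BEBi3-/- mice, at -0.30 ± 0.10 (limma adjusted p = 0.0451), and Mrps18a and Mrps18b stood at -0.11 and -0.10. With the length and GC trend removed, the WT values were 0.04 for Mrps18a, which was no longer called, 0.39 for Mrps18b, which was then higher, and -0.45 for Mrps18c, which stayed lower.

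Transcript length moved with these differences. The annotated transcripts of the 76 genes have a median of 1221 bases, against 2613 bases for all tested genes, and over all tested genes the shorter ones were lower in tumor libraries. Spearman's rho between length and the tumor effect was 0.26 in BEBi3-/- and 0.44 in WT mice over 12868 annotated genes, and 0.55 in both genotypes over the 76 genes. The trend was not particular to tumor status. For BEBi3-/- against WT libraries, rho over the 12868 genes was 0.29 in nontumor mice and -0.50 in tumor mice. For the interaction it was -0.48. Over the 76 genes these values were -0.07, -0.51 and -0.44 in the same order. Genes here are not independent, and the points share libraries, depth and base composition. After each library's trend on length and GC content was removed, 22 genes were lower in BEBi3-/- tumor libraries, with a median of -0.16, and 20 of the 35 earlier calls were among them. In that fit 18.9% of all tested genes were lower.

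In WT mice 55 genes were lower after the same step, 4 were higher and the median was -0.46, with 13 of the 75 called genes turning in sign. Of all tested genes 38.048% were lower and 36.781% higher in that fit. The 4 higher genes were Mrpl27 at 0.42, Mrps18b at 0.39, Mrpl40 at 0.35 and Mrpl37 at 0.24. Mrps25, with the longest transcript of the set, stood at -2.05 after this step, further below 0 than before, and Mrpl17 at -1.83. Mrpl14, Mrpl33, Mrpl52, Mrpl12 and Mrps16 stayed lower in WT tumor libraries, at -1.05, -1.32, -1.11, -0.85 and -1.77. Whether the length trend arose from RNA quality, library preparation or the cells was not tested.

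**Figure D4:**
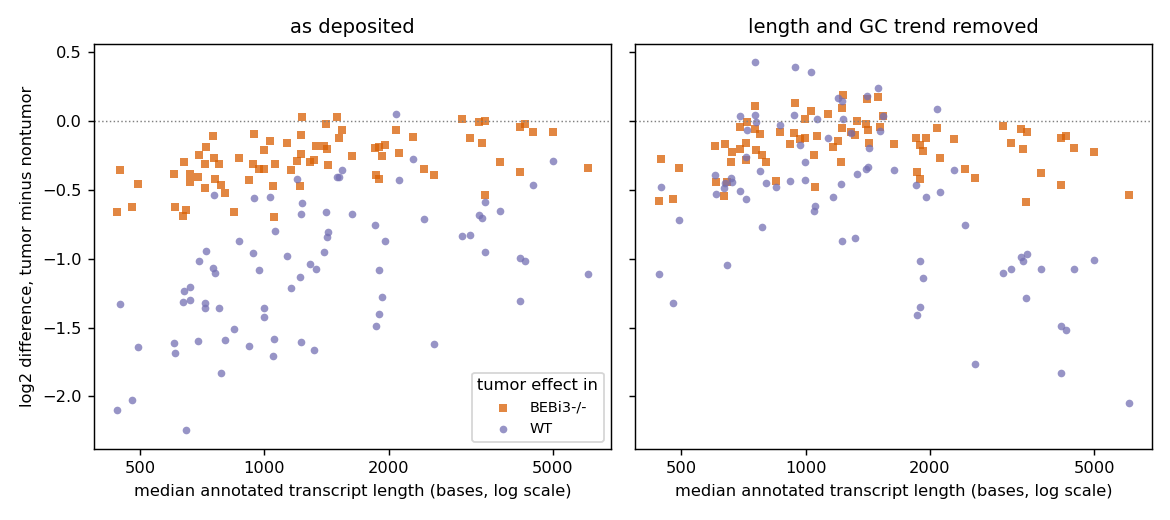
Log2 difference between tumor and nontumor libraries against median annotated transcript length (log axis) for the 76 genes in BEBi3-/- (squares) and WT mice (circles), as deposited and with each library's trend on length and GC content removed. In WT mice the median over the genes was -1.05 as deposited and -0.46 with the trend removed.

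The promoters of genes at either end of the differences are given to show the bases around their starts. Each sequence spans 250 bases before to 50 bases after the RefSeq start on GRCm38.p6, all on the plus strand, in lower case with motif matches in capitals. Mrpl14 (chr17:45686099-45686398) had the lowest WT difference, Mrps11 (chr7:78782881-78783180) the lowest BEBi3-/- difference, and Mrps2 (chr2:28467816-28468115), chosen after its values were seen, was the gene that was not lower.
Mrpl14: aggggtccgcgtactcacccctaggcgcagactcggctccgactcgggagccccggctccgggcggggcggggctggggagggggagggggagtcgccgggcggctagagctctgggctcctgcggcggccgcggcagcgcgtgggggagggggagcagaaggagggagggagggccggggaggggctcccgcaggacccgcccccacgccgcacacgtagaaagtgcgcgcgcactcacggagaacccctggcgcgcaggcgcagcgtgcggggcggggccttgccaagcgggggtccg
Mrps11: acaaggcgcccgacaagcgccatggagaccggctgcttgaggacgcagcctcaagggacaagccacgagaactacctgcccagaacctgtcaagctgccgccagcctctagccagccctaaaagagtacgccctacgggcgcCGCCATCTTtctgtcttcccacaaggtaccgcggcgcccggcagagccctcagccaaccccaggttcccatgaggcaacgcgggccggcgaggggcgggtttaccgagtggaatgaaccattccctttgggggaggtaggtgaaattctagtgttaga
Mrps2: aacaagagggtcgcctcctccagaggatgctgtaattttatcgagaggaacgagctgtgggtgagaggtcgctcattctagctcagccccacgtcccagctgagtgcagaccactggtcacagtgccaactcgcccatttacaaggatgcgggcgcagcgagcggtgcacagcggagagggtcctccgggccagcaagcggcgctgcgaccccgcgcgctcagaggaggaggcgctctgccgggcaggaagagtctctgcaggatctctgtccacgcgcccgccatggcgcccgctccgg

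Motif letters known for activators of mitochondrial genes were searched on both strands: GCGCATGCG (NRF1), CCGGAAGT (ETS factors such as GABPA), AAGATGGCG (YY1) and CACGTG (the E-box bound by MYC). None of these strings contains another. The capitals in Mrps11 are a YY1 match read from the opposite strand, and the Mrpl14 and Mrps2 windows hold none of the 4 strings. RefSeq listed 73 promoters for 67 of the 76 genes. Of these 73, 9.59% held the NRF1 letters against 1.75% of all 32851 promoters, 16.4% the ETS letters against 3.89%, 10.96% the YY1 letters against 1.40%, and 9.59% the E-box against 7.15%. The 7 promoters with an E-box belong to 5 of the 67 genes, since Mrpl2 has several listed promoters. At least 1 of the 4 strings was present in 41.1% of the promoters of these genes and in 13.1% of all promoters. Among the 67 genes the median tumor effect in WT mice was -0.68 with (7 genes) and -1.08 without the NRF1 letters, -0.99 with (12 genes) and -1.07 without the ETS letters, -1.14 with (8 genes) and -1.02 without the YY1 letters, and -1.32 with (5 genes) and -0.998 without the E-box. These are descriptions of letters in a window and not of binding.

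In tumor-bearing mice, BEBi3-/- libraries were compared with WT libraries. Of the 76 genes 66 were higher in BEBi3-/- tumor libraries and 0 lower (limma, adjusted p below 0.05), where 31.9% of all tested genes were higher and 28.6% lower. The median difference was 0.68, beside -0.00051 over all genes. With edgeR 68 and with DESeq2 64 were higher, and 0 were lower with either. At an unadjusted p below 0.05, limma gave 1 lower gene. The libraries did not overlap for 73 genes that were higher and 1 that was lower in BEBi3-/- tumor libraries, against 44.2% and 44.7% of all tested genes. The WT tumor libraries enter this comparison and the WT tumor effect alike, so their values are not independent. Markers of other cells moved with this comparison: 12 of 12 macrophage (median 2.49), 11 of 12 erythroid, 9 of 10 granulocyte and 6 of 7 plasma cell markers were higher in BEBi3-/- tumor libraries, the immunoglobulin joining chain gene Igj by 3.60. Also higher were 7 of 9 T cell and 5 of 7 platelet markers. The part of all these markers in the ribosomal gene differences was not tested.

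The highest called differences in tumor mice were those of Mrpl14 at 1.39 ± 0.18 (limma adjusted p = 0.000263), Mrpl12 at 1.26 ± 0.11 (adjusted p = 4.5e-05), Mrpl52 at 1.22 ± 0.15 (adjusted p = 0.000184) and Mrpl33 at 1.17 ± 0.11 (adjusted p = 5.95e-05). Mrps34, a mitochondria-specific protein of the small subunit, had 948 and 933 normalized counts in BEBi3-/- tumor libraries against 461 and 421 in WT tumor libraries, a fold of 2.13. Mrps28, Mrpl54 and Mrpl28 followed at 1.09, 1.09 and 1.07 on the log2 scale. The 10 genes not called were Mrpl19, Mrpl27, Mrpl35, Mrpl37, Mrpl39, Mrpl50, Mrpl51, Mrps2, Mrps22 and Mrps31.

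With the length and GC trend removed, 39 of the 76 genes were higher in BEBi3-/- tumor libraries and 3 lower (Mrpl27, Mrps18b and Mrps22), and the median was 0.24. Of the 66 genes called before, 36 were called again in the same direction and 11 turned in sign. Mrpl14, Mrpl12 and Mrpl33 remained higher, at 0.45, 0.70 and 0.57, and Mrpl52, Mrpl54 and Mrps34 no longer passed, at 0.31, 0.11 and 0.23.

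Whether the tumor effect differed between genotypes was tested directly, as the BEBi3-/- effect minus the WT effect (the interaction). It was positive for 67 of the 76 genes and negative for 0 (limma, adjusted p below 0.05), where 27.5% of all tested genes were positive and 25.4% negative. The median was 0.77, beside -0.013 over all genes. edgeR gave 67 and DESeq2 60 positive genes, and neither gave a negative one, nor did limma at an unadjusted p below 0.05. The 8 genes with the smallest p were Mrpl13, Mrpl48, Mrps34, Mrpl33, Mrpl12, Mrps16, Mrpl11 and Mrpl28. Mrpl13 (uL13) had 1206 and 1256 normalized counts in BEBi3-/- tumor libraries, 597 and 600.1 in WT tumor libraries, 1451 and 1458 in BEBi3-/- nontumor libraries, and 1710.4 and 1941 in WT nontumor libraries. All 4 groups were apart, and the interaction was 1.36 ± 0.12 (adjusted p = 0.000135). With the length and GC trend removed, 34 genes were positive and 1, Mrpl27, negative, with a median of 0.27. Over all tested genes 21.8% were then positive and 17.0% negative. Markers with a positive interaction were 12 of 12 macrophage, 8 of 12 erythroid, 8 of 10 granulocyte and 5 of 7 plasma cell markers. They also included 5 of 9 T cell and 5 of 7 platelet markers, and the part of all these markers was not tested.

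In nontumor mice, BEBi3-/- libraries were compared with WT libraries. None of the 76 genes passed the test, in a comparison in which 0% of all tested genes were called higher and 0% lower by limma. At an unadjusted p below 0.05 limma had 0 higher and 3 lower among the 76 genes (Mrpl13 at -0.32 ± 0.08, Mrpl32 at -0.32 ± 0.09 and Mrpl23 at -0.26 ± 0.10), and 653 higher and 396 lower among all genes. edgeR called 0 of all genes and DESeq2 11 higher and 10 lower, none of them among the 76. The median difference was -0.12, and 71 of the 76 genes were below 0. It was -0.24 without WT nontumor replicate 1 and -0.02 without WT nontumor replicate 2. The libraries overlapped for 50 of the 76 genes, against 68.1% of all tested genes, and the other 26 were all lower in BEBi3-/- libraries, where 16.1% of all tested genes were lower and 15.8% higher without overlap.

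The subunits that carry other symbols followed the same pattern with 1 exception. Of all tested genes 18.5% were lower in BEBi3-/- and 40.1% in WT tumor libraries. In BEBi3-/- mice 3 of 7 were lower in tumor libraries (Dap3 at -0.39, Mrp63 at -0.55 and Aurkaip1 at -0.29), with a median of -0.29. In WT mice 6 of 7 were lower, among them Mrp63 at -1.46, Aurkaip1 at -1.44, Ict1 at -1.29 and Chchd1 at -1.28, with a median of -1.29. The exception was Ptcd3, a pentatricopeptide protein of the small subunit, which averaged 1402 ± 0.576 normalized counts in WT tumor libraries and 1191 ± 15.6 in WT nontumor libraries (SD, n = 2 each) and was called higher. With the length and GC trend removed, 6 of the 7 were lower and 0 higher in WT mice, so that the call of Ptcd3 was lost. In BEBi3-/- mice 2 of the 7 were then lower, with a median of -0.18, where 18.9% of all tested genes were lower.

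Factors that build the mitochondrial ribosome or modify its RNA were divided in direction. Of 27, 4 were higher and 1 lower in BEBi3-/- tumor libraries (median 0.0030), and 5 were higher and 10 lower in WT tumor libraries (median -0.22, and 0.17 with the length and GC trend removed). The WT counts of this list and of the translation factors and synthetases below compare with 39.6% of all tested genes higher and 40.1% lower, and they are not far enough from those shares to be read as results about the lists. Rbfa, which matures the small-subunit RNA, was at -0.36 in BEBi3-/- and -1.13 in WT mice. Malsu1, which binds the large subunit at Mrpl14 during assembly, was at -1.16 and Mpv17l2 at -1.26 in WT mice, whereas Ybey, an endonuclease, rose by 1.23 there. Mettl17, a small-subunit assembly factor, rose by 0.73 and the RNA helicase Dhx30 by 0.29 in BEBi3-/- mice.

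Of 15 mitochondrial translation factors, 0 were higher and 2 lower in BEBi3-/- tumor libraries (median -0.04), and 5 were higher and 6 lower in WT tumor libraries (median -0.0059). Slirp, which stabilizes mitochondrial messenger RNA, was at -0.52 in BEBi3-/- and -1.65 in WT mice, and Tufm, the mitochondrial elongation factor Tu, at -0.36 and -0.88. Gfm2, a recycling factor, rose by 0.82 in WT mice. Of 20 mitochondrial aminoacyl-tRNA synthetases and amidotransferase subunits, 1 was higher and 3 lower in BEBi3-/- tumor libraries (median 0.04), and 8 were higher and 6 lower in WT tumor libraries (median 0.12). Fars2 was at -0.47 and -1.02 in the same order.

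Of 14 genes for replication, transcription and processing of mitochondrial nucleic acids, 2 were higher and 1 lower in BEBi3-/- tumor libraries (median 0.06), and 9 were higher and 3 lower in WT tumor libraries (median 0.38). Polg, the mitochondrial DNA polymerase, rose by 0.31 in BEBi3-/- and 0.92 in WT mice, and Hsd17b10, a subunit of mitochondrial RNase P, was at -0.31 in BEBi3-/- and -1.42 in WT mice. Of 10 transcriptional regulators of mitochondrial genes, 1 was higher and 0 lower in BEBi3-/- tumor libraries, and 4 were higher and 2 lower in WT tumor libraries. Of all tested genes, 14.1% were higher and 18.5% lower in BEBi3-/- tumor libraries, and 39.6% higher and 40.1% lower in WT tumor libraries. The regulator counts are not far enough from those shares to be read as a result about the list. Myc, which drives ribosome production in growing cells, rose by 0.60 ± 0.16 in BEBi3-/- tumor libraries (limma adjusted p = 0.024) and was at -0.90 ± 0.16 in WT tumor libraries (adjusted p = 0.00068), and its interaction was 1.495 ± 0.22 (adjusted p = 0.00098). The coactivators Ppargc1a and Pprc1 rose by 2.14 and 0.91 and Gabpa by 0.48 in WT tumor libraries.

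Cytosolic ribosomal protein and respiratory chain genes, with median transcripts of 772.5 and 742 bases, had medians further below 0 than the 76 genes in both genotypes. Of 82 tested cytosolic ribosomal protein genes, 70 were lower in BEBi3-/- tumor libraries (median -0.44) and 82 in WT tumor libraries (median -1.81, and -0.94 with the length and GC trend removed). Of 81 tested nuclear-encoded respiratory chain genes, 69 were lower in BEBi3-/- tumor libraries (median -0.46) and 77 in WT tumor libraries (median -1.68, and -0.79 with the trend removed). The differences between these lists and the 76 genes were not tested.

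**Figure D5:**
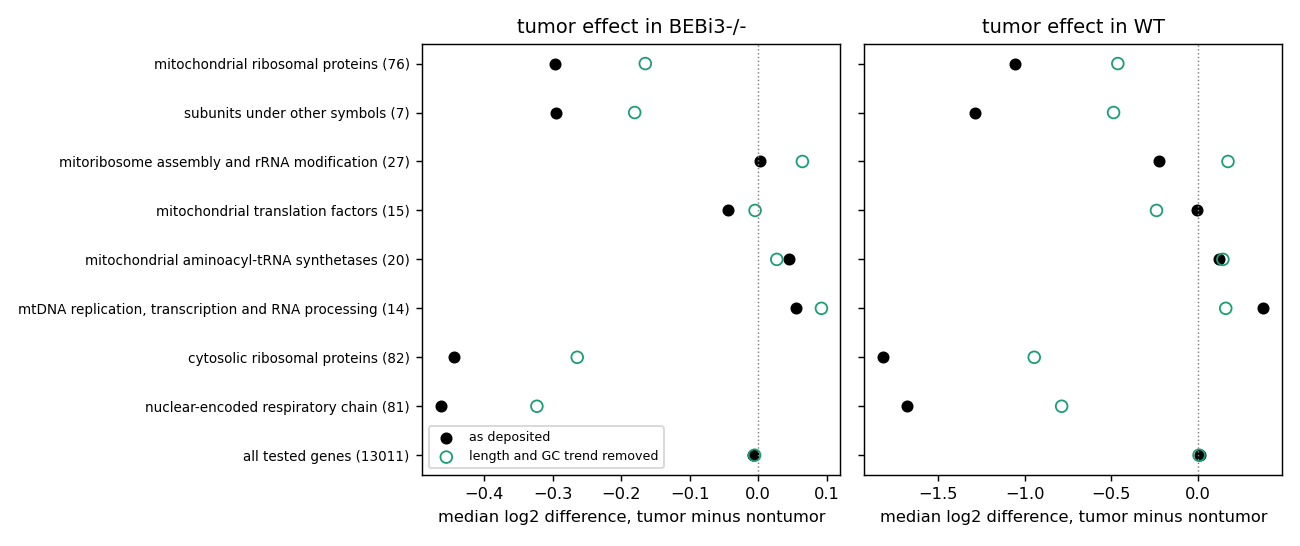
Median log2 difference between tumor and nontumor libraries over each gene list in BEBi3-/- (left) and WT mice (right, on a wider axis), as deposited (filled) and with the length and GC trend removed (open), with the number of genes tested in parentheses. The subunit lists, cytosolic ribosomal proteins and respiratory chain genes lie below 0, and the all-gene medians were -0.0077 and 0.0099.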

How the data were processed

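RNA of spleen naive B cells was measured in 8 libraries, 2 in each of 4 groups taken from the genotype and tumor status labels. Per the submitters' processing notes, the tools were Salmon and DESeq2 and the build was mm10, with no versions named. The deposited values are DESeq2-normalized counts per gene symbol and library (signal, used as such), which the authors computed from reads. Divided by the step between values, 100% came out whole within a tolerance of 0.01, which gave back the reads per gene and a depth of 21291892 to 28297319 per library.

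Values were taken to log2 after adding 1, so that folds of low genes are slightly understated. One limma 3.58.1 model (R 4.3.3) with a mean per group was fitted to all 8 libraries and 13011 genes with a mean of at least 10, with an intensity-dependent prior variance (residual degrees of freedom 4, prior 4.64). Tests were two-sided, and each of 5 comparisons had its own Benjamini-Hochberg adjustment across the tested genes. Alternatives were edgeR 4.0.16 and DESeq2 1.42.0 on recovered reads, pseudocounts of 5 and 0.1, no filter, quantile normalization, the compared groups alone, libraries left out in turn, a replicate block, and removal of each library's spline trend (5 degrees of freedom each) on median protein-coding transcript length and GC content from GENCODE vM21 (GRCm38), available for 98.9% of tested genes. Promoters came from RefSeq on GRCm38.p6. Salmon assigns reads among similar sequences, and how it treated processed pseudogenes of these genes is not stated.

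The genes, lists and alternatives were chosen with earlier results of these data known. Genes are named by a fixed rule: per comparison the 8 most extreme called members whose groups do not overlap (the 8 smallest p for the interaction), the structural region lists, the S18 homologs, the highest and lowest 5 per kilobase, and the 4 smallest p in each other list. Mrps2, Ptcd3, the genes not called in tumor mice, those turned by the trend removal and those at an unadjusted p in nontumor mice were named after their values were seen.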

Additional observations from a re-analysis of the deposited data

Results flagged for a closer look

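The tumor effect differed between BEBi3-/- and WT mice by the interaction test itself (limma) for 67 of the 76 mitochondrial ribosomal protein genes, all with the less negative effect in BEBi3-/- mice. Among the 8 genes with the smallest p, the difference in log2 tumor effect was 1.398 for Mrpl33, 1.377 for Mrpl12, 1.363 for Mrpl13, 1.231 for Mrpl28, 1.223 for Mrps16, 1.205 for Mrps34, 1.10 for Mrpl48 and 1.025 for Mrpl11. The interaction contains the WT tumor libraries, which also stood apart in Xist, Ddx3y and the prefix of their titles, so that the interaction and those differences cannot be told apart. With the length and GC trend removed, Mrps34 no longer passed, at 0.27.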

How the results depend on the processing

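Removal of the length and GC trend changed several counts: 4 genes became higher in WT tumor libraries, the number lower in BEBi3-/- tumor libraries was 22, the numbers higher and lower in BEBi3-/- against WT tumor libraries were 39 and 3, and the interaction had 34 positive and 1 negative genes. Averaging the BEBi3-/- tumor libraries, chosen after seeing the data, left 1 gene lower in BEBi3-/- tumor libraries, and fitting the compared groups alone gave 1 gene lower in BEBi3-/- than in WT tumor libraries. With single libraries left out, the number of genes lower in BEBi3-/- tumor libraries ranged from 1 to 43, the number lower in WT tumor libraries from 71 to 75, the number higher in BEBi3-/- than in WT tumor libraries from 60 to 68, the number lower there from 0 to 1, and the number with a positive interaction from 55 to 68. The other alternatives run kept each of these counts within 1.5 times. A group left with 1 library was assumed to vary like the others. The 8 most extreme called genes per comparison (smallest p for the interaction) were followed through the alternatives. In WT mice these 8 kept call and direction in 152 of 152 combinations of gene and alternative. The call was lost in 30 of 136 in BEBi3-/- mice, 3 of 136 in the genotype comparison of tumor mice and 1 of 128 in the interaction, and 0 reversed. These genes were picked from the same data, and the rest held less well. Of all 75 genes called in WT mice, 55 kept the call and 13 turned in sign with the length and GC trend removed. In BEBi3-/- mice Mrpl14 had adjusted p-values of 0.0529 with no filter and 0.129 with averaged tumor libraries (limma). Whether the title numbers of the WT groups pair the libraries could not be decided. Deviations of equal numbers ran in opposite directions, with a Pearson r of -0.256 over 13011 genes and -0.494 over the 76 genes. Each group gives only a single difference between replicates, so this sign cannot exclude pairing. With the title numbers as a replicate block, 75 of 75 calls were kept in WT mice. The same held with the numbers crossed, an alternative that was not planned. Depth did not limit detection of any of the 76 genes, the lowest value in any library being 112.5 normalized counts.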

Other observations

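Libraries of the same group differed in the level of these genes as a whole. WT nontumor replicate 2 was higher than replicate 1 in 69 of the 76 genes, with a median log2 difference of 0.18, and BEBi3-/- nontumor replicate 2 was higher than replicate 1 in 65, with a median of 0.09. WT tumor replicate 2 was lower than replicate 1 in 62 genes, with a median of -0.12, whereas the BEBi3-/- tumor libraries divided evenly, with 38 genes higher and 38 lower. The chi-square per gene between libraries over the 76 genes was 1.19 in BEBi3-/- tumor, 3.89 in WT tumor, 1.95 in BEBi3-/- nontumor and 9.42 in WT nontumor mice.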
